A study of Mus musculus with 6 samples.

Results

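Transcripts of the laminin chains and nidogens of basement membranes were examined in whole mouse adrenal glands. The set holds 10 genes, chosen by name from the laminin and nidogen families, out of 54532 genes in the count table. It has 4 alpha chains (Lama1, Lama2, Lama4, Lama5), 2 beta chains (Lamb1, Lamb2), 2 gamma chains (Lamc1, Lamc3) and both nidogens (Nid1, Nid2). All 10 passed the filter on low counts, as did 16300 genes in all. Bulk RNA sequencing was done on 3 gland samples labelled VEGF/LysM and 3 labelled WT, and the series asks what VEGF-A made by macrophages does to the gland as a whole. The labels give no allele, driver, strain, age or sex for either group. They do not say whether the samples came from separate animals, so a p reflects the variation among these 6 libraries, and that variation could be technical alone.

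Laminins are proteins of 3 chains, 1 alpha, 1 beta and 1 gamma, and each is named by the numbers of its chains. Those with full-length chains are cross-shaped and polymerise at cell surfaces as the first sheet of a basement membrane. Laminins bind integrins and dystroglycan through the end of the alpha chain. Nidogens bind the gamma chain and type IV collagen and so tie both networks together. In blood vessels the alpha chains encoded by Lama4 and Lama5 are typical of the endothelial basement membrane, while the chain encoded by Lama2 is typical of muscle and of the Schwann cells of peripheral nerve. The adrenal cortex is threaded by sinusoidal capillaries with fenestrated endothelium, so endothelial and cortical cells face each other across such a membrane.

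The site of the Lamc1 chain that binds nidogen is shown beside the aligned stretch of Lamc3. It was chosen because the share of Lamc3 among the gamma chains differed between the groups. Nidogen binding was not measured. Both sequences are coding DNA from GENCODE M21 transcripts on GRCm38, written 5′ to 3′. The capitals mark the 21 bases that encode the nidogen-binding loop of Lamc1 and the bases aligned to them in Lamc3.
Lamc1, chr1:153243352-153243390, minus strand, exonic: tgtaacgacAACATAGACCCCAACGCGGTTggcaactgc
Lamc3, chr2:31920589-31920627, plus strand, exonic: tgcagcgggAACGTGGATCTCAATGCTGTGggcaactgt
Of the 7 loop codons, 5 encode the same residue in both genes. The encoded chains of Lamc1 and Lamc3 have 1607 and 1581 residues, of which 44.1% of 1553 aligned pairs are identical.

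Library totals ran from 16476879 to 18671950 counts, and the 10 genes had 176 to 3326 counts per library. Cortex and medulla markers were abundant in every library, with summed levels of 17750 to 29220 CPM and 3751 to 9374 CPM. WT replicate 3 stood apart. Its 5 hepatocyte markers summed to 61600 CPM, against 205 CPM in VEGF/LysM replicate 3 and at most 2.05 CPM in the other libraries. Its 5 kidney tubule markers summed to 29.3 CPM (2.30 CPM in VEGF/LysM replicate 3, at most 0.0586 CPM elsewhere, where 4 or 5 of the 5 were at 0). Relative to the mean of WT replicates 1 and 2, the 10 genes were lower in WT replicate 3 by a median of 0.54 log2 units (differences of -0.83 to -0.034), while the median over all tested genes was 0.0035. Its 5 lymphocyte markers summed to 210 CPM, against 5.24 to 19.2 CPM in the other libraries. The 5 red cell markers were lower in every VEGF/LysM library (89.3 to 173 CPM) than in any WT library (209 to 596 CPM), and the part of blood content in the values below was not tested. The part of the liver, kidney and lymphocyte transcripts of WT replicate 3 in its lower values of the 10 genes was not tested. In a whole gland, fewer cells of a type and less RNA per cell cannot be told apart.

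Between VEGF/LysM and WT, no laminin or nidogen gene passed the test. edgeR's quasi-likelihood test called 0 of the 10 genes at the adjusted threshold of 0.05 and 0% of all 16300 genes. The adjusted value of each of the 10 was 0.999 (edgeR, Benjamini-Hochberg). Before adjustment, 0 of the 10 had a p below 0.05, against 2.82% of all genes. DESeq2 and limma-voom also called 0 genes, with 542 and 224 of all genes below 0.05 before adjustment, against 459 with edgeR. All 10 log2 fold changes of VEGF/LysM over WT were above 0, against 50.3% of all genes, and they ran from 0.098 to 0.53 with a median of 0.24 (0.0013 over all genes). Scaled by library size alone, all 10 were again above 0, but so were 61.7% of all genes. Without WT replicate 3 the sign of 9 of the 10 was above 0 (51.5% of all genes) and the median was 0.072. Without WT replicate 3 and VEGF/LysM replicate 3 it was 7 of the 10 (50.1% of all genes), with a median of 0.14. The groups did not overlap for 1 of the 10 genes, Lamc3, with higher values in VEGF/LysM (3.54% of all genes), and for 0 of the 10 were all VEGF/LysM values lower (2.41% of all genes). Without WT replicate 3, Lamc3 was still the 1 gene with all VEGF/LysM values higher (7.49% of all genes), and Lamb2 was the 1 gene with all VEGF/LysM values lower (6.9% of all genes). The call for Lamb2 rests on TMM scaling repeated without that library, since on the CPM scaled over all 6 libraries VEGF/LysM replicate 1 (170.6 CPM) lay just above WT replicate 2 (170.3 CPM). Without both replicates 3, Lama2, Lamc3 and Nid1 were the 3 genes with all VEGF/LysM values higher (15.2% of all genes), and 0 of the 10 had all values lower (13.2% of all genes).

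**Figure D1:**
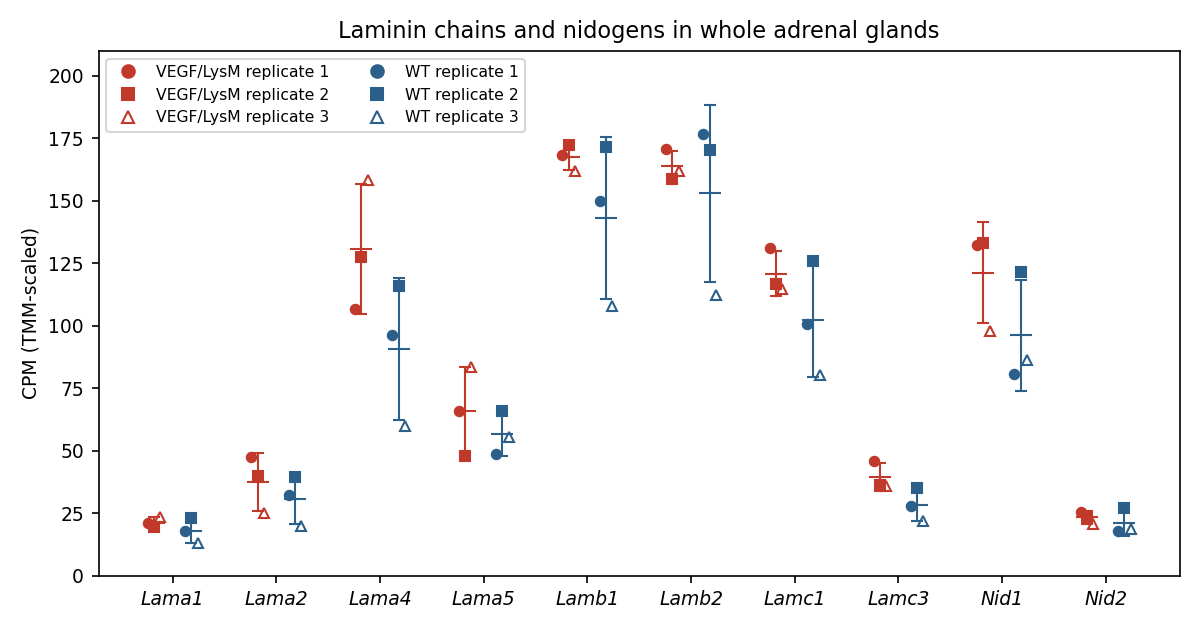
TMM-scaled CPM (y axis) of each laminin chain and nidogen in the 3 VEGF/LysM and 3 WT libraries; points are libraries, bars the mean and SD (n = 3). The ranges of the VEGF/LysM and WT points overlap for 9 of the 10 genes. WT replicate 3 (open blue triangles) is the lowest library for 7 of the 10, and for 29.7% of all genes tested.

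Levels between genes were compared per kilobase (CPM per kb), because long genes collect more reads. The order of the levels depended on which length was used. By merged exon length, Lamb2 was highest at 26.0 ± 3.86 CPM per kb (SD over 6 libraries), followed by Lamb1 at 15.65, Nid1 at 15.64, Lamc1 at 13.5, Lama4 at 9.17, Lamc3 at 5.55, Lama5 at 5.37, Nid2 at 4.30, Lama2 at 2.08 and Lama1 at 2.03. Of these neighbours, Lamb2 and Lamb1, and Nid2 and Lama2, had ranges over the 6 libraries that did not overlap. By the length of the longest coding transcript the order was Lamb2 at 28.1, Lamb1 at 26.8, Lama4 at 18.3, Nid1 at 17.8, Lamc1 at 14.6, Lamc3 at 5.76, Lama5 at 5.37, Nid2 at 4.56, Lama2 at 3.54 and Lama1 at 2.06 CPM per kb. By this length the neighbours Lamc1 and Lamc3 were the 1 pair with ranges that did not overlap. Lama4 moved most in the order because its merged exons span 12068 bases and its longest coding transcript 6046.

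Beta chain transcripts were the most abundant class. Summed per kilobase of merged exons, the beta chains reached 42.05 CPM per kb on average, the nidogens 19.9, the alpha chains 19.8 and the gamma chains 19.1. By the longest coding transcript the sums were 55.45 for beta, 30.4 for alpha, 22.4 for nidogens and 20.5 CPM per kb for gamma. The class sums and the shares below also count the laminin chains outside the set.

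Among the alpha chains, Lama4 led in all 6 libraries by either length. Lama4 (ENSMUSG00000019846, chromosome 10, 38965515 to 39110188, plus strand, GRCm38) encodes a chain without the long N-terminal arm of its relatives, and its coding sequence has 1816 codons against 3718 in Lama5. It took 48.4% ± 6.3 of the alpha chains in VEGF/LysM and 43.0% ± 4.9 in WT by merged exons (SD, n = 3), or 61.9% ± 6.42 and 56.8% ± 4.40 by the longest coding transcript. In replicate order, Lama4 had 107, 127 and 158 CPM in the VEGF/LysM libraries, against 96.1, 116 and 59.8 CPM in the WT libraries. The lowest VEGF/LysM value lay between the WT values, the highest library was VEGF/LysM replicate 3 and the lowest was WT replicate 3. The fold change of Lama4 on the log2 scale was 0.53 ± 0.27 (SE), with a 95% interval of -0.11 to 1.17, and was 0.30 without WT replicate 3 and 0.15 without WT replicate 3 and VEGF/LysM replicate 3.

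Lama5 encodes a full-length chain found in most adult epithelial and endothelial basement membranes (ENSMUSG00000015647, chromosome 2, 180176373 to 180225859, minus strand). It was the second alpha chain at 25.6% ± 4.10 in VEGF/LysM and 29.6% ± 6.21 in WT by merged exons. By the mean length of coding transcripts Lama2 was second, with a mean share of 18.0% over 6 libraries against 16.6% for Lama5. Lama5 had 65.8, 47.9 and 83.3 CPM in the VEGF/LysM libraries, against 48.8, 65.8 and 55.3 CPM in the WT libraries. The highest and the lowest library were both VEGF/LysM. The fold change of Lama5 on the log2 scale was 0.21 ± 0.23 (SE; 95% interval -0.32 to 0.75), 0.19 without WT replicate 3 and 0.0070 without VEGF/LysM replicate 3. Counts of Lama4 made up 61.8%, 72.7% and 65.5% of Lama4 plus Lama5 in the VEGF/LysM libraries and 66.3%, 63.8% and 51.9% in the WT libraries. The 95% Wilson intervals of the highest (71.1% to 74.2%, VEGF/LysM replicate 2) and lowest (49.45% to 54.4%, WT replicate 3) were far apart, so this ratio varied between libraries beyond counting error, without separating the groups. Such intervals cover counting error alone, since the reads carry no molecular identifiers.

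Lama2, the alpha chain of muscle and nerve laminins (ENSMUSG00000019899, chromosome 10, 26980036 to 27619758, minus strand), had 47.5, 40.0 and 24.9 CPM in the VEGF/LysM libraries, against 32.4, 39.6 and 19.98 CPM in the WT libraries. VEGF/LysM replicate 3 and WT replicate 3 were the lowest libraries. The 5 capsule and fibroblast markers also had their lowest sum in VEGF/LysM replicate 3, at 242 CPM against 387 to 495 CPM elsewhere. The medulla markers had their highest sum there, at 9374 CPM against 3751 to 6886. Not every marker followed its sum. Pdgfra was lowest in WT replicate 3 (48.6 against 54.3 CPM), and Pnmt was highest in VEGF/LysM replicate 1 (485.8 against 326.5 CPM). The part of tissue make-up in the values of VEGF/LysM replicate 3 was not tested. Exons of Lama2 share 631 bases, 3.86% of their length, with the antisense gene Gm48084, whose reads cannot be told apart. For Lama2 the log2 fold change was 0.29 ± 0.32 (SE), and 0.055 without WT replicate 3. Summed Schwann cell markers ran from 22.7 to 43.4 CPM in VEGF/LysM and from 19.99 to 55.9 CPM in WT, with neither group apart. Lama1, the alpha chain of early embryonic basement membranes (ENSMUSG00000032796, chromosome 17, 67697259 to 67822647, plus strand), had 21.0, 19.3 and 23.4 CPM in the VEGF/LysM libraries, against 18.0, 23.1 and 13.1 CPM in the WT libraries. On the log2 scale, Lama1 differed by 0.23 ± 0.24 (SE), and by 0.043 without WT replicate 3. Within the alpha class the Lama1 share was lower in every VEGF/LysM library (10.1%, 9.92% and 9.51%) than in any WT library (10.8%, 11.2% and 10.2%) by merged exons. This is a common pattern, as 10.2% of all genes had a lower ratio to the summed alpha chains in every VEGF/LysM library. That share depends on the alpha sum itself, which averaged 22.3 CPM per kb in VEGF/LysM and 17.2 in WT.

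**Figure D2:**
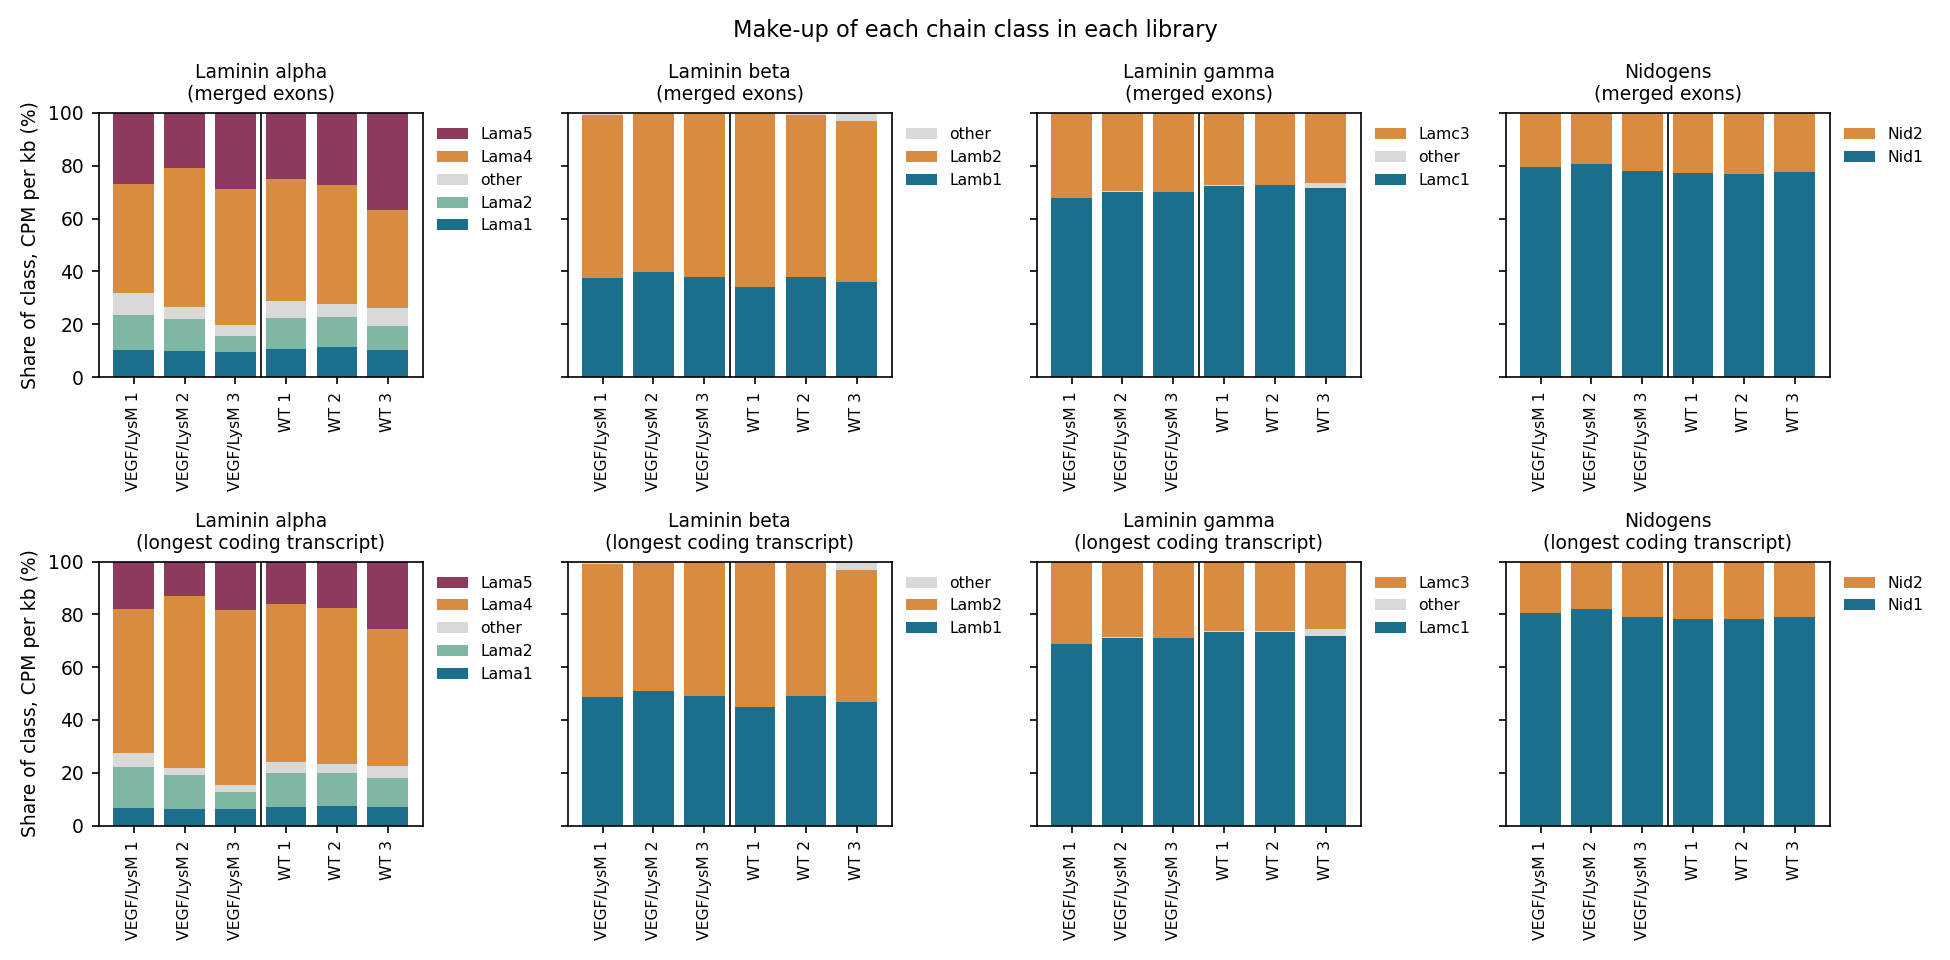
Share of each gene in its class (y axis, percent of the class's summed CPM per kb; grey, laminin chains outside the set) in the 3 VEGF/LysM libraries (left of the line) and the 3 WT libraries, by merged exon length (upper row) and by longest coding transcript (lower row). Lama4, Lamc1 and Nid1 are the largest part of their class in all 6 libraries, while Lamb1 and Lamb2 are near parity by the longest coding transcript.

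Both beta chains were abundant in every library, and their levels overlapped between the groups. Lamb2, a chain of mature vessel, kidney glomerulus and synaptic basement membranes (ENSMUSG00000052911, chromosome 9, 108479736 to 108490530, plus strand), had 171, 159 and 162 CPM in the VEGF/LysM libraries, against 177, 170 and 112 CPM in the WT libraries. Lamb2 had a log2 fold change of 0.098 ± 0.20 (SE; 95% interval -0.36 to 0.56), and the sign turned to -0.086 without WT replicate 3. Lamb1, the more widespread beta chain (ENSMUSG00000002900, chromosome 12, 31265234 to 31329644, plus strand), had 168, 172 and 162 CPM in the VEGF/LysM libraries, against 150, 171 and 108 CPM in the WT libraries. The log2 fold change of Lamb1 was 0.23 ± 0.19 (SE), and 0.057 without WT replicate 3. Lamb2 made up 61.1% ± 1.19 of the beta chains in VEGF/LysM and 62.7% ± 2.45 in WT by merged exons (SD, n = 3), but 49.8% ± 1.26 and 51.6% ± 2.52 by the longest coding transcript. Which of both chains leads therefore could not be settled from these values. Lamb3 took at most 3.11% of the class in any library.

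Among the gamma chains, Lamc1 led and Lamc3 held a larger share in VEGF/LysM than in WT. Lamc1, the gamma chain of most laminins (ENSMUSG00000026478, chromosome 1, 153218922 to 153332786, minus strand), had 131, 117 and 115 CPM in the VEGF/LysM libraries, against 101, 126 and 80.3 CPM in the WT libraries. The WT values enclosed those of 2 VEGF/LysM libraries. Lamc1 had a log2 fold change of 0.24 ± 0.18 (SE; 95% interval -0.20 to 0.68), and 0.087 without WT replicate 3. Lamc3 (ENSMUSG00000026840, chromosome 2, 31887291 to 31946539, plus strand) encodes a rarer chain, whose aligned nidogen site is shown above. It had 45.9, 36.3 and 35.9 CPM in the VEGF/LysM libraries, against 28.0, 34.9 and 21.9 CPM in the WT libraries. Every VEGF/LysM value was above every WT value, although VEGF/LysM replicate 3 and WT replicate 2 differed by little. The estimate for Lamc3 was a log2 fold change of 0.48 ± 0.21 (SE), with a 95% interval of -0.028 to 0.98, and 0.32 without WT replicate 3.

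The ratio of both gamma chains within a library does not depend on the scaling between libraries. Counts of Lamc3 were 25.9% (95% Wilson interval 24.4% to 27.5%), 23.7% (22.2% to 25.3%) and 23.8% (22.2% to 25.5%) of Lamc1 plus Lamc3 in VEGF/LysM replicates 1, 2 and 3. They were 21.8% (20.1% to 23.5%), 21.7% (20.3% to 23.2%) and 21.4% (19.3% to 23.7%) in WT replicates 1, 2 and 3. The groups did not overlap, WT replicate 3 lay with the other WT libraries, and the counting intervals of VEGF/LysM replicates 2 and 3 overlapped those of the WT libraries. Per kilobase of merged exons, Lamc3 was 30.5% ± 1.44 of the gamma chains in VEGF/LysM and 27.1% ± 0.488 in WT (SD, n = 3). Of all genes tested, 0.773% had a higher ratio to Lamc1 in every VEGF/LysM library than in any WT library. That share depends on Lamc1 itself, whose log2 fold change was 0.24, and the ratio was chosen with earlier results known. It therefore does not measure how unusual the Lamc3 ratio was. No p is given for this ratio, since 3 against 3 libraries allow no exact p below 0.1. Exons of Lamc3 share 382 bases, 6.27% of their length, with the antisense gene Gm13441, whose reads cannot be told apart without strand.

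Nidogen transcripts were mostly Nid1. Nid1, which binds laminin and type IV collagen (ENSMUSG00000005397, chromosome 13, 13437551 to 13512269, plus strand), had 132, 133 and 97.8 CPM in the VEGF/LysM libraries, against 80.6, 121 and 86.2 CPM in the WT libraries. VEGF/LysM replicate 3 lay among the WT values. Its log2 fold change was 0.33 ± 0.21 (SE; 95% interval -0.16 to 0.83), 0.26 without WT replicate 3 and 0.40 without both replicates 3. Nid2, the second nidogen (ENSMUSG00000021806, chromosome 14, 19751265 to 19811787, plus strand), had 25.6, 23.6 and 20.7 CPM in the VEGF/LysM libraries, against 17.8, 27.1 and 18.6 CPM in the WT libraries. The log2 fold change of Nid2 was 0.14 ± 0.21 (SE). It was 0.047 without WT replicate 3, 0.029 without WT replicate 1 and 0.36 without WT replicate 2. Nid1 was 79.4%, 80.8% and 77.9% of nidogen CPM per kb in VEGF/LysM, against 77.1%, 76.9% and 77.6% in WT, by merged exons. These shares did not overlap, but the gap between VEGF/LysM replicate 3 and WT replicate 3 was small beside the counting intervals of 80.8% to 84.1% and 80.2% to 84.2% for the Nid1 share of counts. A ratio to Nid2 that was higher in every VEGF/LysM library was found for 1.09% of all genes. That share depends on Nid2 itself and does not measure how unusual the Nid1 ratio was. Exons of Nid1 share 143 bases, 2.06% of their length, with the antisense gene Gm48682. Exons of Nid2 share 437 bases, 8.45% of their length, with the coding gene Rtraf on the other strand. The levels of both nidogens are thus uncertain.

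To see which trimers the transcripts could support, each of 13 known chain combinations was given the level of its least abundant chain. Laminins 411 and 421 came first, at 9.17 ± 2.73 CPM per kb by merged exons (SD over 6 libraries) and 14.5 ± 2.66 by the longest coding transcript. By merged exons Lama4 was their least abundant chain, and by the longest coding transcript it was Lamc1 in 5 libraries and Lama4 in WT replicate 3. Laminin 423, which holds the Lamc3 chain, followed at 5.55 and 5.76 CPM per kb, and laminins 511 and 521 at 5.37 by either length. The order of 423 against 511 and 521 was not settled. Lamc3 was above Lama5 in 3 of 6 libraries by merged exons and in 4 by the longest coding transcript, with overlapping ranges. Laminins 411 and 421 were above 511 and 521 in 6 of 6 libraries by either length. WT replicate 3 was the closest, at 4.95 against 4.86 CPM per kb by merged exons. With the same beta chain these trimers differ in the alpha chain alone, so by merged exons this restates that Lama4 was above Lama5. A chain shared by several trimers was counted in full for each. The levels therefore give no proportions between trimers, such as 411 and 421. Laminins 211 and 221 reached 2.08 and 3.54 CPM per kb, and 111 and 121 reached 2.03 and 2.06. By merged exons the level for 411 and 421 was 10.8 ± 2.16 CPM per kb in VEGF/LysM and 7.505 ± 2.36 in WT (SD, n = 3), and their values overlapped between the groups. These are limits set by RNA levels in the whole gland. Which chains were made in the same cells, how well each was translated and which trimers were assembled was not measured.

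**Figure D3:**
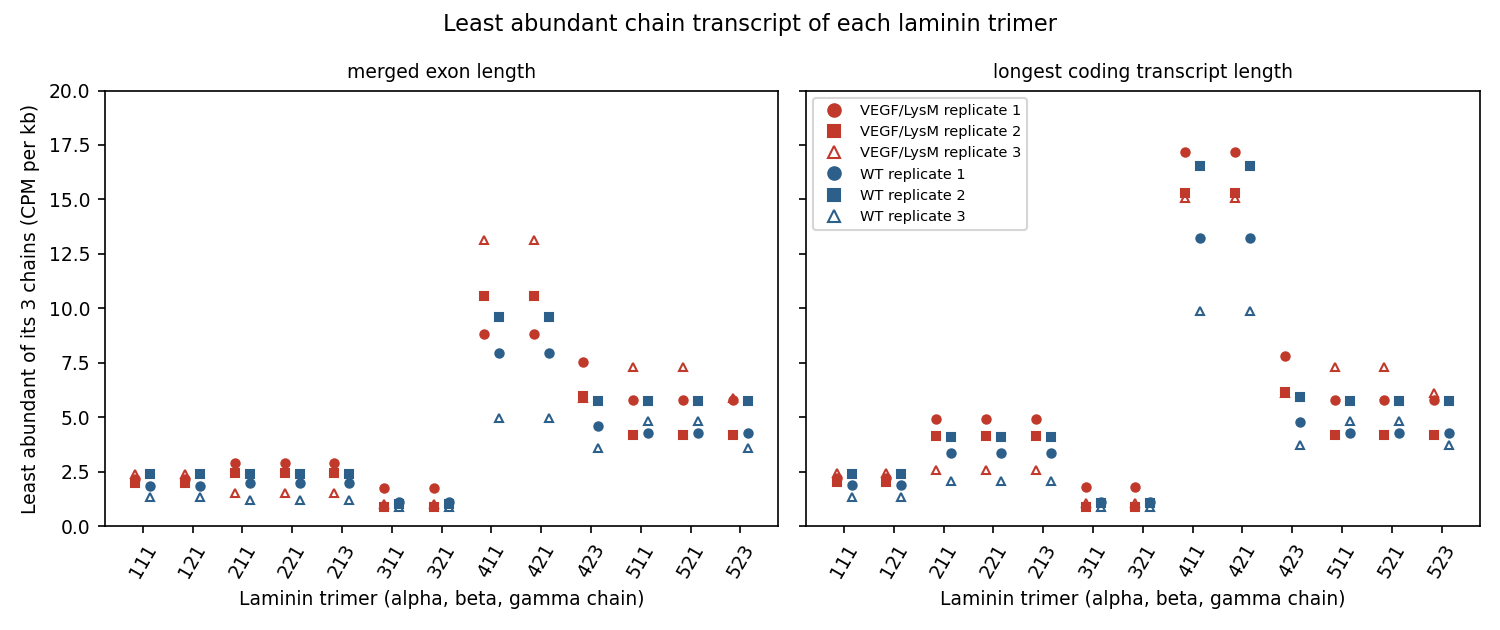
Least abundant chain (y axis, CPM per kb) of each laminin trimer (x axis, named by its alpha, beta and gamma chain) in the VEGF/LysM and WT libraries, by merged exon length (left) and longest coding transcript (right). Trimers 411 and 421 are highest in both panels, followed by 423, 511, 521 and 523, whose values overlap.

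**Figure D4:**
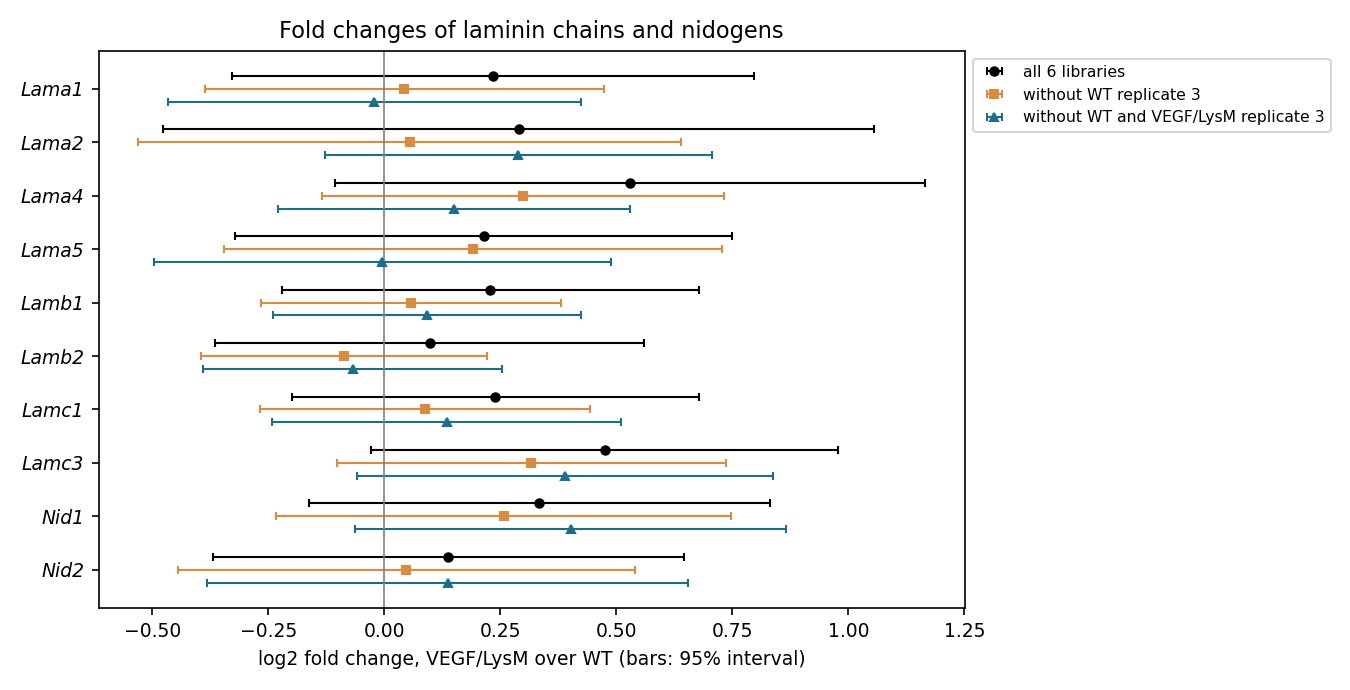
Log2 fold change of VEGF/LysM over WT (x axis) with its 95% interval for each gene, from edgeR on all 6 libraries, without WT replicate 3, and without WT and VEGF/LysM replicate 3. Every interval spans 0, and most estimates move toward 0 without WT replicate 3.

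The genes also differed in how they varied over the 6 libraries. The difference between a pair of genes was taken as the root mean square of their log2 CPM, each centred on its own mean over the 6 libraries. Lamb1 and Lamc1 were the closest pair of the 45 pairs, at 0.075 log2 units, and Nid1 and Nid2 were at 0.12. Lamb1 ranked 45 of 10515 genes with at least 10 CPM in closeness to Lamc1. Lama1 ranked 336, Lamc3 443, Nid2 549, Lamb2 631 and Nid1 1437. Lama2, Lama5 and Lama4 ranked 3991, 4947 and 5021. Of the alpha chains, Lama1 was thus the nearest to Lamc1 over these libraries. The 3 nearest genes to Lamc1 outside the set were Zfp687, a zinc finger protein gene, Plpp3, which encodes a lipid phosphate phosphatase, and Zeb1, a transcription factor gene, at 0.034, 0.035 and 0.039 log2 units. All of these distances are over the same 6 libraries, in which WT replicate 3 was low for most members.

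**Figure D5:**
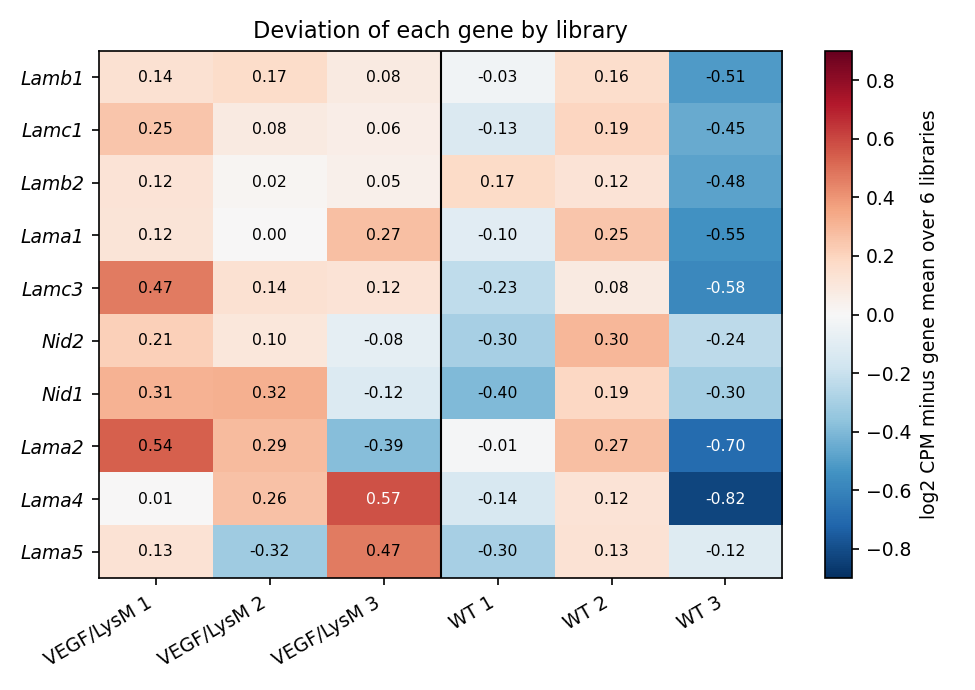
Log2 CPM of each gene minus its mean over the 6 libraries (colour and printed value), with VEGF/LysM libraries left of the line and WT libraries right of it. WT replicate 3 is below the mean for all 10 genes, between -0.82 for Lama4 and -0.12 for Lama5, and VEGF/LysM replicate 3 is above it for Lama4 and Lama5 and below it for Lama2.

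Genes that work with laminins did not pass the test either. Of 9 receptor genes (laminin-binding integrins, dystroglycan, Bcam and sarcoglycans), 0 passed. Of these, 6 had a log2 fold change above 0 (50.3% of all genes) and the median was 0.11. Sgcb, a sarcoglycan of the dystroglycan complex, had 53.5, 51.1 and 46.1 CPM in VEGF/LysM against 44.6, 45.4 and 28.6 CPM in WT (log2 fold change 0.34 ± 0.20, SE, and 0.15 without WT replicate 3). Itga6, an integrin subunit that binds laminin, had 170, 149 and 136 CPM in VEGF/LysM against 119, 157 and 75.4 CPM in WT (0.37 ± 0.27, and 0.13 without WT replicate 3). Without WT replicate 3 the receptor median was -0.072, with 4 of the 9 above 0. Of 16 partners in the basement membrane, 0 passed, 13 were above 0 (50.3% of all genes) and the median was 0.092. Without WT replicate 3, 10 of the 16 were above 0 (51.5% of all genes) and the median was 0.060. Smoc1, a calcium-binding matrix protein gene, had 268, 282 and 214 CPM in VEGF/LysM against 202, 185 and 226 CPM in WT (0.32 ± 0.17, and 0.39 without WT replicate 3). Col18a1, a collagen gene also expressed in liver, had 148, 109 and 86.5 CPM in VEGF/LysM against 115, 115 and 918 CPM in WT, with WT replicate 3 far above the rest. Its log2 fold change was -1.74 ± 0.83 (SE), but -0.012 without WT replicate 3 and 0.16 without both replicates 3.

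Of 12 symbols listed for laminin folding and dystroglycan glycosylation, 10 were found and tested and 0 passed. Their log2 fold changes had a median of 0.039, with 7 above 0 (50.3% of all genes). Without WT replicate 3 the median was 0.060, again with 7 above 0 (51.5% of all genes). Pomgnt1, a glycosyltransferase of dystroglycan, had 71.2, 76.1 and 73.5 CPM in VEGF/LysM against 68.1, 69.6 and 57.9 CPM in WT (0.18 ± 0.13, SE, and 0.093 without WT replicate 3). P4hb, a disulphide isomerase of the endoplasmic reticulum, had 463, 520 and 498 CPM in VEGF/LysM against 460, 465 and 1045 CPM in WT, and its log2 fold change was -0.41 ± 0.34 (0.090 without WT replicate 3). Among the other laminin chains, Lama3 had 18.9, 9.57 and 11.2 CPM in VEGF/LysM against 11.8, 11.3 and 9.43 CPM in WT (0.29 ± 0.30, and 0.19 without WT replicate 3). Lamb3 had 2.52, 1.37 and 0.883 CPM in VEGF/LysM against 1.31, 2.01 and 6.02 CPM in WT (-0.95 ± 0.67, and -0.069 without WT replicate 3). Both P4hb and Lamb3 were highest in WT replicate 3. Endothelial markers summed to 525 to 602 CPM in VEGF/LysM and 495 to 603 CPM in WT, with the lowest sum in WT replicate 3, and their part in the laminin values was not tested.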

How the data were processed

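The authors deposited raw counts, with 1 whole number for each gene in each library and no scaling, as the values show. The tools kallisto and DESeq2 1.36.0 and the genome build mm10 are named in the submitters' processing notes. What each was used for, and the annotation, is not given in the sources used. Per the labels' protocols, libraries followed Smart-seq2, which does not mark strand. Columns were matched to samples by title.

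The 10 genes, the lists and the tests were chosen with earlier results of these data known. Counts were filtered with filterByExpr (minimum count 10, minimum total 15) and scaled by TMM, with factors of 0.84 in WT replicate 3 and 1.02 to 1.05 elsewhere. Group was the sole term of the quasi-likelihood fit in edgeR 4.0.16 under R 4.3.3. The Benjamini-Hochberg adjustment ran over 16300 genes, with a threshold of 0.05. Fold changes are VEGF/LysM over WT. The edgeR fit was tested on simulated counts, in which no library was made to hold transcripts of other tissues. Shares, ratios, trimer levels and distances were not part of that simulation. CPM per kb used GENCODE M21 (GRCm38) lengths, either all exons merged or the longest coding transcript. Shares, ratios and trimer levels are descriptions without a test. Distances used log2 (CPM + 0.5). Gamma chains were translated and aligned with Biopython 1.88. From each list of related genes, those past the threshold and the 2 with the smallest p are named. Tmem5 is an older symbol of Rxylt1. Some items are not reported here. Alternatives were other scalings and filters, DESeq2 1.42.0, limma-voom (limma 3.58.1), a replicate block, libraries left out and other gene lengths.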

Additional observations from a re-analysis of the deposited data

How the results depend on the processing

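Direction and call of the 10 genes were compared under 14 alternatives each. Of 140 values, 136 kept their sign and 4 reversed, and none passed the threshold. Without WT replicate 3, Lamb2 turned to -0.086, and without WT replicate 3 and VEGF/LysM replicate 3, Lamb2 turned to -0.069, Lama1 to -0.021 and Lama5 to -0.0041. Genes called over the whole table numbered 0 under every alternative except the fit without WT replicate 3, which called 1 (edgeR, Sumo2, named after its value was seen and no member of the set), so leaving out 1 library gave 0 to 1. With 1 library left out, log2 fold changes ran from 0.043 to 0.45 for Lama1, from 0.0070 to 0.38 for Lama5 and from -0.086 to 0.21 for Lamb2. Without WT replicate 2, Lama4, Lamc3 and Nid1 had log2 fold changes of 0.75, 0.66 and 0.54, each with an edgeR adjusted p of 0.656. Members with a log2 fold change above 0 numbered 9 to 10 when 1 library was left out and 7 without both replicates 3. With the replicate number as a block, 0 genes were called and all 10 members stayed above 0. Deviations of same-numbered libraries from their group means had correlations of 0.071, -0.0027 and 0.25 for replicates 1, 2 and 3. For replicates 3 this was the highest correlation of each with the other group, and both held liver and kidney transcripts. Replicates 1 and 2 did not correlate best with their own number. With 3 libraries per group and foreign tissue in both replicates 3, these correlations cannot decide on pairing. The numbers were not taken as pairs because the labels do not say that a shared number marks a shared animal or day.

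Shares within a class depended on the gene length. By the longest coding transcript, the mean share over 6 libraries was 6.83% for Lama1, 59.4% for Lama4, 18.1% for Lama5, 48.3% for Lamb1 and 50.7% for Lamb2, against 10.3%, 45.7%, 27.6%, 37.2% and 61.9% by merged exons. By the mean length of coding transcripts it was 6.26% for Lama1, 18.0% for Lama2, 54.5% for Lama4, 16.6% for Lama5, 29.6% for Lamb1, 69.8% for Lamb2, 79.0% for Lamc1 and 20.4% for Lamc3. With no division by length it was 8.29% for Lama1, 14.4% for Lama2, 49.0% for Lamb1, 50.1% for Lamb2, 76.6% for Lamc1, 23.0% for Lamc3, 82.9% for Nid1 and 17.1% for Nid2. Leaving out libraries moved no mean share by more than the SD between libraries. A mean over 6 libraries cannot move that far when so few are left out. No conclusion on the stability of the shares is drawn from this comparison.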
